A study of Homo sapiens with 8 samples.

Results

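The genes described here encode RNA polymerase II, RNA polymerase III and the transcription factors that work only with polymerase III. They also encode its repressor MAF1 and 3 abundant RNAs that polymerase III makes. They were chosen by name: protein-coding genes with a GENCODE symbol of the POLR2 or POLR3 series, GTF3A, the GTF3C series, BRF1, BDP1 and MAF1, to which RN7SK, RN7SL1 and RN7SL2 were added. Described here are 38 such genes, 35 protein-coding and 3 non-coding, of 60668 in the count tables, and the rule itself uses no expression value. Each of the 38 passed the filter on low counts (over 1 CPM, counts scaled to the size of the library, in 4 or more libraries) that left 15222 genes for the test.

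RNA polymerase II transcribes the protein-coding genes of the nucleus. RNA polymerase III transcribes short non-coding genes such as those for tRNAs, 5S rRNA, the 7SK RNA and the RNA of the signal recognition particle. Both are large assemblies that share a set of small subunits with each other and with RNA polymerase I, and each has its own catalytic subunits. MYC drives cell growth in part by raising transcription by all 3 nuclear polymerases, and it binds the polymerase III factor TFIIIB directly.

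The libraries came from D283-OMO cells, a derivative of the human medulloblastoma line D283 MED that carries, by lentiviral transduction, a doxycycline (DOX)-inducible, FLAG-tagged OMOMYC gene. OMOMYC is a dominant-negative MYC mini-protein that keeps MYC away from its DNA sites and hinders it from pairing with its partner MAX. The OMO group held 4 libraries of untreated cells and the OMO+DOX group 4 libraries of cells treated with DOX for 72 h, and each was sequenced from polyadenylated (polyA+) RNA. Both groups carried the transgene and were of 1 transduced line, and no DOX-treated cells lacking the transgene were among them, so the effects of DOX and of OMOMYC cannot be told apart here.

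The libraries held between 38390696 and 54020506 counts assigned to genes. The medulloblastoma and neuronal markers OTX2, NPR3, NRL, SYP and ENO2 were expressed in both groups, although their summed level was 2020 to 2080 CPM in OMO and 849 to 869 CPM in OMO+DOX and all 5 were lower with DOX. EOMES, the 6th marker, did not pass the filter and went the other way, without overlap. Its mean was 0.264 CPM in OMO and 0.777 CPM in OMO+DOX. Of 8 markers of immune, endothelial, glial and fibroblast cells, only COL1A1 passed the filter. The summed level of the 8 was 22.6 to 23.5 CPM in OMO and 21.9 to 25.8 CPM in OMO+DOX. Nearly all of that sum was COL1A1, with means of 22.1 CPM in OMO and 23.4 CPM in OMO+DOX. Below the filter and without overlap, CD68, AQP4 and MBP were higher with DOX and COL1A2 was lower. The MYC targets CAD, an enzyme of pyrimidine synthesis, and NCL, which encodes nucleolin, were lower with DOX, with log2 fold changes (log2FC) of -0.48 (SE 0.05) and -0.44 (SE 0.04), whereas MYC, whose reads cannot be separated from those of the transgene, had a log2FC of 0.26 (SE 0.06). OMO replicate 3 stood apart in a comparison of each library with the mean of the other 3 of its group. Across 15116 genes its deviation from that mean had a rank correlation with transcript length of -0.59. In the other 3 OMO libraries the value lay between 0.24 and 0.47, and in the OMO+DOX libraries between -0.39 and 0.33. Over the 38 polymerase genes the correlation was -0.67 in OMO replicate 3, 0.74 in OMO replicate 4 and -0.50 in OMO+DOX replicate 3, and between -0.12 and 0.34 in the other 5 libraries. Calls that changed without OMO replicate 3 are given below with that value.

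After 72 h of OMOMYC induction the machinery did not move as a block. POLR2A, the catalytic subunit of polymerase II, rose 3.23-fold, while the other polymerase II subunits stayed within 1.4-fold of the untreated level. On the polymerase III side GTF3A and GTF3C1 fell by more than 1.5-fold, and the RNAs RN7SL1, RN7SL2 and RN7SK were 2.42-fold, 2.64-fold and 1.89-fold lower. At a false discovery rate (FDR) of 0.05 in the quasi-likelihood test of edgeR, 24 of the 38 genes changed, 10 upwards and 14 downwards.

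That count is not high for this experiment. The same threshold called 76.6% of all 15222 genes tested, 38.5% as higher and 38.1% as lower with DOX, against 63.2% of the 38 genes. With a change over 1.5-fold in addition, 38.4% of all genes were called (19.5% higher and 18.9% lower) against 15.8% of the 38, which is 1 gene higher and 5 lower. No gene of the machinery passed FDR 0.001 with an absolute log2FC over 2, which 7.12% of all genes did. The groups did not overlap in 21 of the 38 genes, and in 71.7% of all genes. The median absolute log2FC of the 38 genes was 0.24 and that of all genes was 0.43. The share of higher calls moved with the scaling: with library size alone in place of trimmed mean scaling the median log2FC of all genes was 0.14 and not 0.01, calls in all genes went from 5868 higher and 5793 lower to 7157 higher and 4715 lower, and in the 38 genes from 10 higher and 14 lower to 14 higher and 9 lower. No gene called under both scalings changed direction.

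**Figure D1:**
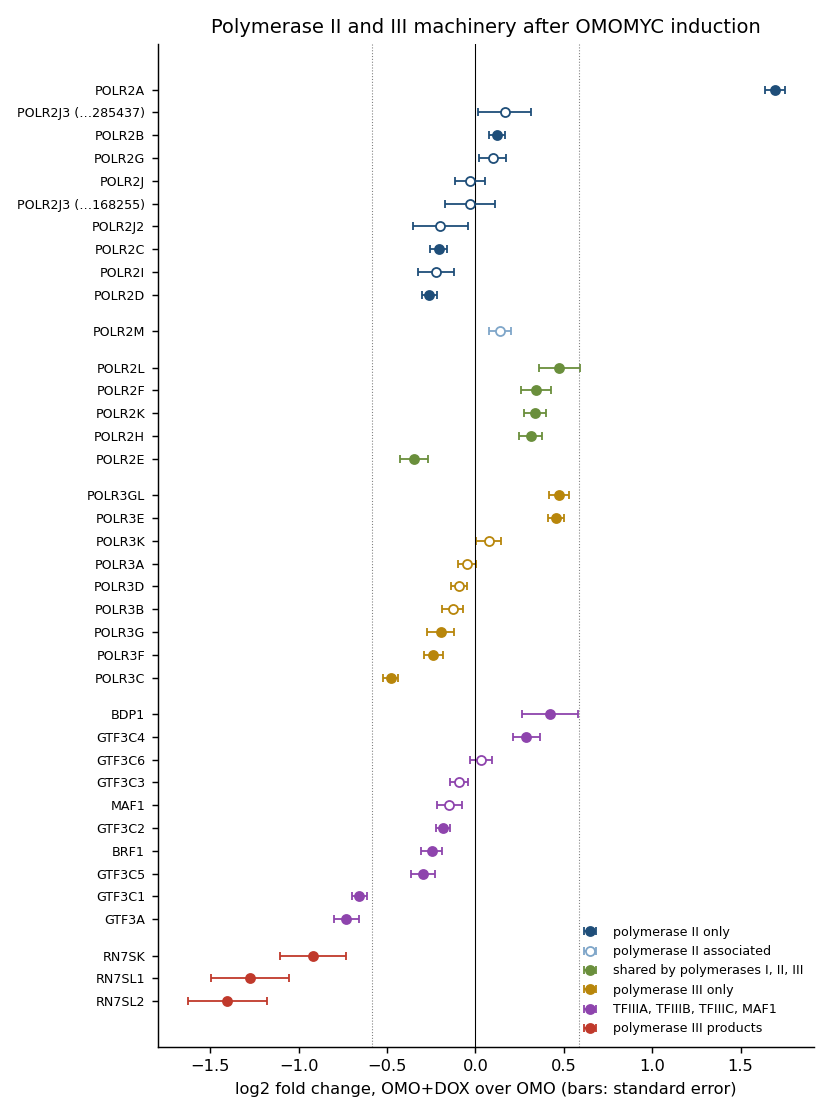
Log2 fold change (OMO+DOX over OMO) with its standard error for each of the 38 genes, grouped by role and coloured by group. Filled points passed FDR 0.05, open points did not, and the dotted lines mark a 1.5-fold change. POLR2A stands alone at 1.69 on the right and the 3 polymerase III products lie at -0.92 or below, while most subunits and factors lie between the dotted lines.

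POLR2A (ENSG00000181222.16, GRCh38 chr17:7484366-7514616, plus strand) encodes the largest subunit of polymerase II, which carries the active site and the C-terminal repeat domain. Its level was 228, 233, 207 and 231 CPM in OMO replicates 1 to 4 and 753, 670, 735 and 748 CPM in OMO+DOX replicates 1 to 4. All 4 treated libraries lay far above all 4 untreated ones, and OMO replicate 3 was the lowest. The OMO mean was 225 ± 12.1 CPM and the OMO+DOX mean 726 ± 38.4 CPM (± SD over 4 libraries in either case, as in all later values of this form), which gives a log2FC of 1.69 (SE 0.06; edgeR FDR 1.62e-10). Of the genes tested, 832 (5.47%) rose more than POLR2A. Its counts were whole numbers in every library, and none of its exonic sequence was shared with another annotated gene. The difference was 1.64 to 1.75 when any 1 library was left out.

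POLR2B encodes the second-largest subunit, which forms the catalytic cleft together with the POLR2A product. Its level was 148, 156, 142 and 155 CPM in OMO and 165, 167, 163 and 160 CPM in OMO+DOX. The groups did not overlap, but the difference was small, with a log2FC of 0.12 (SE 0.05; edgeR FDR 0.0261). The call was lost when any 1 of the OMO replicates was left out (log2FC 0.08 without replicate 3) and when no filter on low counts was used (0.10). Exons of other genes lie opposite 12.4% of the exonic bases of POLR2B, and its counts were not whole in any of the 8 libraries.

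The 2 genes were therefore compared within each library, per kilobase of their longest annotated transcript, a ratio that no scaling between libraries can alter. The POLR2A to POLR2B ratio was 0.936, 0.910, 0.886 and 0.908 in OMO and 2.78, 2.44, 2.74 and 2.85 in OMO+DOX. The large catalytic subunits were thus near parity at the RNA level in untreated cells, and POLR2A RNA was in excess in every treated library. The ratio rose 2.97-fold, a log2 difference of 1.57 (p = 0.0286 by exact permutation of the libraries, two-sided, which is as low as 4 against 4 libraries can give). Chosen after the values of POLR2A had been seen, this ratio is a description of the same change relative to its partner and no separate evidence for it.

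Among the other subunits found only in polymerase II, POLR2C, a scaffold subunit, and POLR2D, of the stalk, fell. POLR2C had a log2FC of -0.21 (SE 0.05; 31.5 ± 1.41 to 27.3 ± 0.856 CPM) and POLR2D one of -0.26 (SE 0.04; 92.1 ± 2.79 to 76.8 ± 0.846 CPM). For both, the treated libraries lay below all untreated ones, although the call for POLR2C was lost with library size scaling (-0.08). POLR2G, the partner of POLR2D in the stalk, was not called (0.10, 95% interval -0.07 to 0.26; 0.15 and called without OMO replicate 3), and neither was POLR2I (-0.22, 95% interval -0.44 to 0.002, FDR 0.0657), 79.6% of whose exonic bases lie opposite exons of other genes. POLR2J, which pairs with POLR2C in the assembly core, was at 13.3 ± 1.31 and 13.0 ± 1.12 CPM.

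The copies of POLR2J on chromosome 7 cannot be told apart well. Of the 100-base windows of their transcripts, 25.5% for POLR2J, 93.6% for POLR2J2 and 91.8% and 18.9% for the 2 genes named POLR2J3 (ENSG00000168255.20 and ENSG00000285437.1) occurred word for word in other genes. Their log2FC were -0.03, -0.20, -0.03 and 0.17, none was called, the first and the third took the other sign with library size scaling (0.10 each), and the sum of the 4 differed by 0.01. POLR2M, whose product binds polymerase II and competes with an initiation factor, was at 54.2 ± 4.34 and 59.7 ± 3.02 CPM (0.14, SE 0.06; 0.07 without OMO replicate 3) and missed the threshold (edgeR FDR 0.0645), although its groups did not overlap. In all, 2 of the 10 genes of polymerase II alone rose, 2 fell and 6 were not called, with a median log2FC of -0.03 (0.10 with library size scaling).

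The 5 subunits shared by polymerases I, II and III, all small or structural, were each called, and 4 of the 5 rose. POLR2L, at the assembly core, had 23.6, 28.2, 33.7 and 27.1 CPM in OMO and 37.2, 32.3, 42.2 and 44.8 CPM in OMO+DOX, and only the lowest treated library overlapped the untreated range (log2FC 0.47, SE 0.12). Exons of other genes lie opposite 22.5% of the exonic bases of POLR2L. POLR2F rose by 0.34 (SE 0.09), POLR2K by 0.34 (SE 0.06) and POLR2H by 0.31 (SE 0.07). POLR2E, which lies at the jaw that grips downstream DNA, fell by 0.35 on the log2 scale (SE 0.08), from 99.1 ± 8.65 to 77.9 ± 7.40 CPM. The median of the 5 was 0.34. No change in these subunits reached 1.5-fold.

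**Figure D2:**
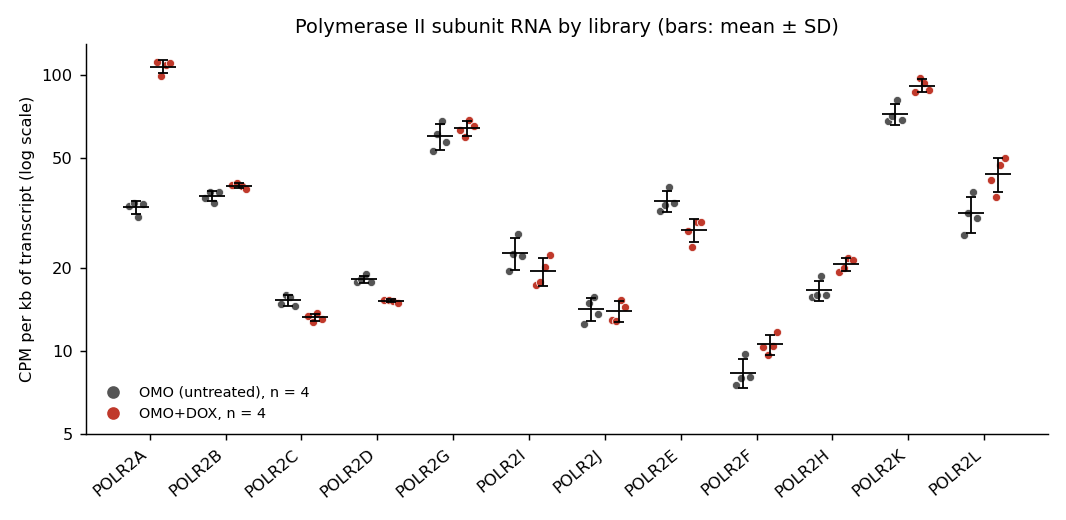
Level of 12 polymerase II subunit RNAs in each library, in CPM per kilobase of the longest annotated transcript on a log axis, with grey points for OMO, red points for OMO+DOX and bars for the mean ± SD (n = 4). POLR2A moves from 33.3 to 108 CPM per kilobase while POLR2B, its catalytic partner, stays between 36.6 and 39.8.

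The subunits found only in polymerase III moved in both directions. Of 9 such genes 2 rose, 3 fell and 4 were not called, with a median log2FC of -0.09 (0.04 with library size scaling) and a range from -0.48 to 0.47. The catalytic subunits were among those not called: POLR3A, the counterpart of POLR2A, was at 46.6 ± 2.67 and 45 ± 1.44 CPM (log2FC -0.05, 95% interval -0.16 to 0.06), and POLR3B at 36.7 ± 2.39 and 33.6 ± 1.7 CPM (-0.13, 95% interval -0.26 to -0.001, FDR 0.0623). POLR3D (-0.09, FDR 0.0861) and POLR3K (0.08, FDR 0.338) were not called either. Without OMO replicate 3, POLR3A (-0.11), POLR3B (-0.19) and POLR3D (-0.14) passed the threshold as lower, while with library size scaling POLR3A and POLR3D had values of 0.08 and 0.04.

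POLR3C, POLR3F and POLR3G encode a trimer that takes part in opening the promoter. POLR3C fell from 57.4 ± 1.24 to 41.2 ± 1.30 CPM (log2FC -0.48, SE 0.04) and POLR3F from 18.6 ± 0.551 to 15.8 ± 0.838 CPM (-0.24, SE 0.05). POLR3G, at 13.3, 13.5, 11.6 and 12.2 CPM in OMO and 11.6, 11.9, 10.6 and 10.1 CPM in OMO+DOX, had overlapping groups (-0.20, SE 0.08; FDR 0.031). The POLR3G call was lost without OMO replicate 2 (-0.19) and without OMO+DOX replicate 1, 3 or 4 (-0.20, -0.15 and -0.13), and those for POLR3F and POLR3G were lost with library size scaling (-0.11 and -0.07).

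POLR3E, which belongs to a dimer with POLR3D that acts in initiation and termination, rose in every treated library. Its level was 75.6, 72.7, 76.5 and 77.5 CPM in OMO and 102, 99.5, 106 and 107 CPM in OMO+DOX (log2FC 0.46, SE 0.04; edgeR FDR 1.61e-06). POLR3GL, the second form of the POLR3G subunit, had 23.5, 24.5, 26.4 and 23.5 CPM in OMO and 33.0, 34.2, 36.5 and 32.3 CPM in OMO+DOX (0.47, SE 0.06; edgeR FDR 1.12e-05). For both genes the groups were widely separated. Exons of AC243547.3 on the same strand share 21.2% of the exonic bases of POLR3GL, and 11.7% of its 100-base windows occur there.

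POLR3G and POLR3GL encode alternative forms of 1 subunit, so that a polymerase III molecule holds either. POLR3G is known as the form of stem cells and many tumour cells, and POLR3GL as the form found broadly in differentiated tissues. Per kilobase, POLR3GL was the more abundant RNA in both groups, at 21.0 CPM per kilobase in OMO and 29.2 in OMO+DOX against 3.86 and 3.37 for POLR3G. The POLR3G to POLR3GL ratio was 0.201, 0.196, 0.156 and 0.184 in OMO and 0.125, 0.124, 0.103 and 0.111 in OMO+DOX. The groups did not overlap, and the ratio was 1.59-fold lower with DOX, a log2 difference of -0.67 (exact permutation p = 0.0286, two-sided, again as low as can be reached). With log2FC of -0.20 for POLR3G and 0.47 for POLR3GL, the larger share of that difference lay in POLR3GL.

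**Figure D3:**
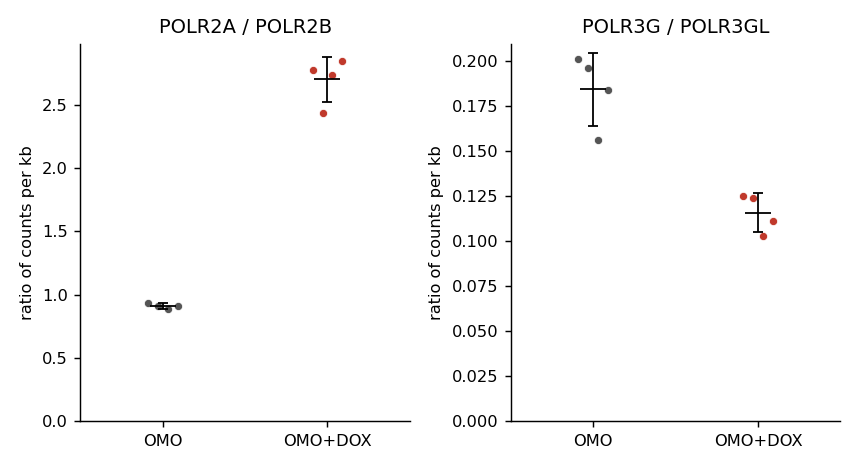
POLR2A to POLR2B ratio (left) and POLR3G to POLR3GL ratio (right) of counts per kilobase in each library, with bars for the mean ± SD (n = 4). The left ratio lies between 0.886 and 0.936 in OMO and between 2.44 and 2.85 in OMO+DOX, and the right ratio between 0.156 and 0.201 in OMO and at 0.103 or above in OMO+DOX, with no overlap in either panel.

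The next 10 genes encode factors that bring polymerase III to its genes or, in the case of MAF1, repress it. Of these 10, 5 fell, 2 rose and 3 were not called, with a median log2FC of -0.17 (-0.04 with library size scaling). GTF3A encodes TFIIIA, the zinc-finger protein that recognises the 5S rRNA genes. It had 54.3, 58.0, 68.6 and 56.1 CPM in OMO and 34.7, 34.9, 36.7 and 36.5 CPM in OMO+DOX, a clear separation with a tight treated group (log2FC -0.73, SE 0.07; edgeR FDR 1.69e-06). The fall was 1.66-fold.

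GTF3C1 encodes the largest subunit of TFIIIC, the complex that binds the internal promoters of tRNA genes. It was at 225, 234, 231 and 235 CPM in OMO and at 153, 141, 148 and 145 CPM in OMO+DOX, with little spread in either group (log2FC -0.66, SE 0.04; edgeR FDR 5.1e-08; 1.58-fold lower). With library size scaling the difference was -0.53, below 1.5-fold and still called.

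The other TFIIIC subunits differed among themselves. GTF3C5 fell by 0.30 on the log2 scale (SE 0.07; 72.6 ± 6.64 to 59.1 ± 3.50 CPM) and GTF3C2 by 0.18 (SE 0.04; 106 ± 1.48 to 93.5 ± 2.58 CPM), the second of which was not called with library size scaling (-0.06) and has 25.3% of its exonic bases opposite exons of other genes. GTF3C4, which has histone acetyltransferase activity, rose by 0.29 (SE 0.08), from 90.8, 85.3, 72.6 and 93.5 CPM to 108, 110, 102 and 97.1 CPM. GTF3C3 (-0.09, FDR 0.128) and GTF3C6 (0.03, FDR 0.631) were not called. Without OMO replicate 3 GTF3C3 passed as lower (-0.15), and with library size scaling it had a value of 0.03.

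TFIIIB, the factor that places polymerase III at the start site, consists of TBP, BDP1 and, at most genes, BRF1. BRF1 fell from 42.3 ± 1.92 to 35.6 ± 2.48 CPM (log2FC -0.25, SE 0.06), a call that was lost with library size scaling (-0.12). BDP1 had 86.1, 84.6, 48.7 and 84.6 CPM in OMO and 110, 112, 96.3 and 88.7 CPM in OMO+DOX. The lowest value belongs to OMO replicate 3, and the BDP1 transcript is, at 11073 bases, the longest of the machinery. The log2FC of BDP1 was 0.42 (SE 0.16; edgeR FDR 0.0284) with all libraries and 0.24 (FDR 0.00535) without OMO replicate 3, and it was not called by DESeq2 (FDR 0.0552) or without OMO+DOX replicate 1 or 2 (0.41 and 0.40). MAF1, the general repressor of polymerase III, was at 70.9 ± 5.81 and 64.1 ± 5.02 CPM and was not called (-0.15, 95% interval -0.30 to 0.008, FDR 0.0761).

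**Figure D4:**
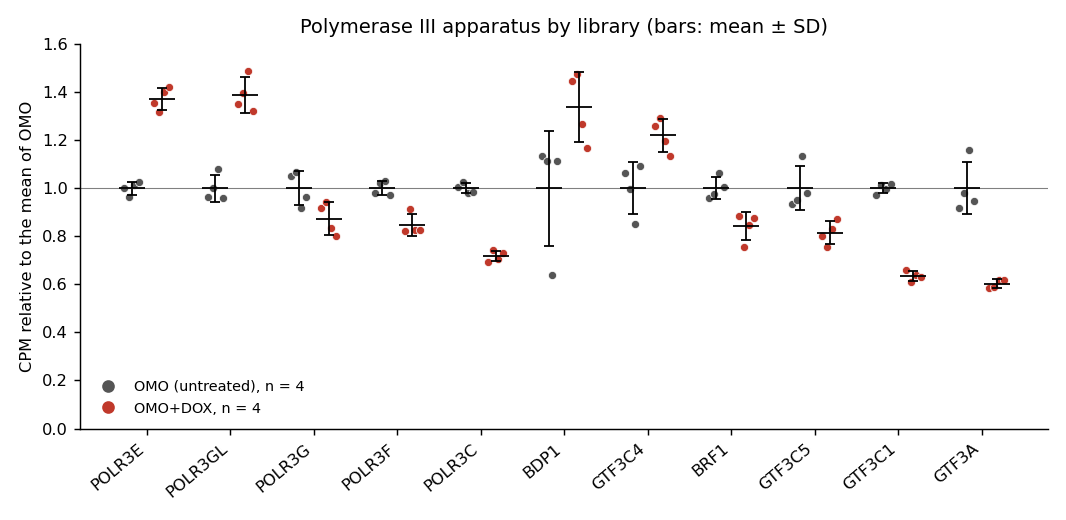
Level of 11 genes of the polymerase III apparatus that passed FDR 0.05 (GTF3C2, also called, is not drawn) in each library, relative to the mean of OMO, with grey points for OMO, red points for OMO+DOX and bars for the mean ± SD (n = 4). GTF3A and GTF3C1 fall 1.66-fold and 1.58-fold, POLR3E and POLR3GL rise, and the low OMO point of BDP1 is replicate 3.

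RN7SL1 and RN7SL2 encode the RNA of the signal recognition particle, which carries ribosomes that make secreted proteins to the endoplasmic reticulum. The copies differ by 4 substitutions and 1 gap base, which leaves 98.3% identity. With 100-base reads, 100% of the windows of RN7SL1 and 82.1% of those of RN7SL2 occur word for word in other genes. The split between the 2 copies was therefore estimated from few reads, and their sum is firmer in that respect only. Both also share windows with AL139099.4, RN7SL3, RN7SL4P and RN7SL5P, which the sum leaves out. Exons of AL139099.4 on the same strand cover 100% of RN7SL1.

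RN7SL1 was at 280, 300, 227 and 131 CPM in OMO and 109, 111, 92.9 and 73.6 CPM in OMO+DOX. RN7SL2 was at 461, 491, 365 and 217 CPM in OMO and 171, 162, 141 and 106 CPM in OMO+DOX. OMO replicate 4 was the lowest untreated library for both, still above all treated ones. The log2FC was -1.28 (SE 0.22; edgeR FDR 0.00023) for RN7SL1 and -1.40 (SE 0.23; edgeR FDR 0.000133) for RN7SL2, and -1.35 for their sum. Without OMO replicate 4 the values were -1.50 and -1.62.

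RN7SK (ENSG00000283293.1, GRCh38 chr6:52995621-52995948, plus strand) encodes the 7SK RNA, the scaffold on which HEXIM proteins hold the elongation kinase P-TEFb inactive. All of its 100-base windows also occur in other annotated genes, 5 in all, and its counts were not whole in any of the 8 libraries, so its reads were divided. RN7SK was at 4.88, 4.64, 4.70 and 3.0 CPM in OMO and at 3.04, 1.92, 2.25 and 1.87 CPM in OMO+DOX. OMO replicate 4 was again the lowest of its group, just under the highest treated library, so the groups overlapped. The log2FC was -0.92 (SE 0.19; edgeR FDR 0.00074), and -1.08 without OMO replicate 4.

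The 3 RNAs have no polyA tail, and the libraries were made from polyA+ RNA. Their counts are of RNA carried through that selection and may include reads of the other genes that share their sequence. Other RNA classes known as tail-less, picked by gene type or name, were lower with DOX as well. Their sums were chosen after the values of RN7SL1 and RN7SL2 had been seen. Small nuclear RNA genes other than U6 and 7SK (590 genes) summed to 8.30 ± 1.17 CPM in OMO and 4.28 ± 0.542 CPM in OMO+DOX, 1.94-fold lower. Small nucleolar and Cajal body RNA genes (991) went from 11.7 ± 1.04 to 7.19 ± 0.762 CPM, and replication histone genes (68) from 121 ± 6.75 to 61.7 ± 2.96 CPM, 1.62-fold and 1.96-fold lower. None of these sums overlapped between the groups. Whether the RNA counted in them had a tail was not tested, and the histone sum was the largest of them. The part of the carry-over of tail-less RNA, or of reads from other genes, in the RN7SL1, RN7SL2 and RN7SK differences was not tested.

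**Figure D5:**
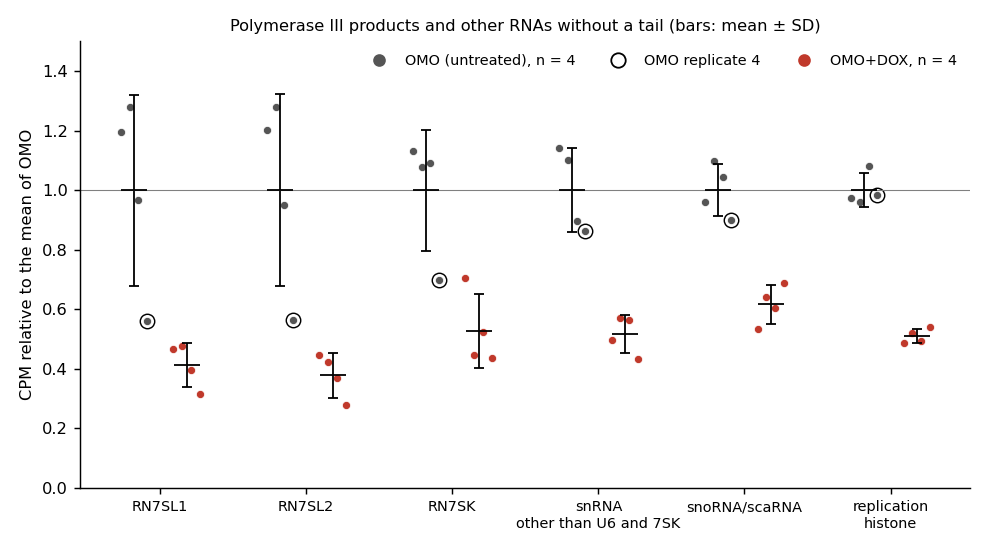
Level of RN7SL1, RN7SL2, RN7SK and 3 sums of other RNA classes known as tail-less in each library, relative to the mean of OMO, with grey points for OMO, red points for OMO+DOX, bars for the mean ± SD (n = 4) and a ring around OMO replicate 4. All 6 are lower with DOX. OMO replicate 4 is the lowest untreated point for the 3 polymerase III products. It is also the lowest for the small nuclear RNA sum and for the small nucleolar and Cajal body RNA sum. For the replication histone sum it is not the lowest.

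Of 12 other polymerase III transcripts listed, RN7SL3 alone passed the filter, at 2.06 ± 0.713 CPM in OMO and 0.609 ± 0.241 CPM in OMO+DOX (log2FC -1.75, SE 0.31). It was over 1 CPM in every OMO library and in no OMO+DOX library. RN7SL3 thus passed only through the group where it was high, which fixed its direction in advance. Of the rest, 10 were in the count tables below the filter, RMRP and RPPH1 among them. Of these, 5 had no count in any library, which allows up to 3 counts in each. They were the Y RNA genes RNY3 and RNY4 and the vault RNA genes VTRNA1-1, VTRNA1-2 and VTRNA1-3. RN7SL3 shares 100-base windows with RN7SL1 and RN7SL2, so part of its count may be reads of those genes.

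The neighbours of these genes in the same pathways gave the following counts, beside 38.5% higher and 38.1% lower among all genes tested. Of 11 partners of polymerase III (the subunits it shares with polymerase I, its own subunit CRCP, which the naming rule leaves out of the 9 above, TBP, BRF2, the SNAPc complex and the La protein gene SSB), 3 rose and 7 fell, with a median log2FC of -0.17 (3 and 4 with library size scaling). POLR1D, a core subunit of polymerases I and III, fell from 229 ± 13.1 to 125 ± 4.89 CPM (-0.88, SE 0.05). Within SNAPc, which recruits polymerase III to the 7SK and U6 genes, SNAPC3 rose by 0.86 (SE 0.05) and SNAPC5 by 0.24 (SE 0.06) while SNAPC2 fell by 0.50 (SE 0.07).

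Of 17 general initiation factors of polymerase II, 8 rose and 6 fell (median 0.01). GTF2E2, a subunit of TFIIE, rose by 0.95 (SE 0.06) and MNAT1, of the TFIIH kinase module, by 0.84 (SE 0.06). GTF2F1, of TFIIF, fell from 142 ± 6.42 to 70.8 ± 2.78 CPM, a log2FC of -1.0 (SE 0.05), and GTF2H4 of TFIIH fell by 0.30 (SE 0.05). Library size scaling gave 10 higher and 2 lower.

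Of 13 genes of promoter-proximal pausing and the 7SK particle, 3 rose and 8 fell (median -0.25), or 5 and 5 with library size scaling. The HEXIM genes parted, with HEXIM1 higher by 0.23 (SE 0.05; 154 ± 5.20 to 181 ± 7.44 CPM) and HEXIM2 lower by 1.03 on the log2 scale (15.0 ± 2.06 to 7.31 ± 0.709 CPM). LARP7, which binds the 7SK 3′ end, rose by 0.30 (SE 0.04), and NELFE, of the pausing factor NELF, fell by 0.67 (SE 0.06). Of 8 protein genes of the signal recognition particle and its receptor, 1 rose and 5 fell (median -0.28). With library size scaling 2 were higher and 4 lower (median -0.15). SRP14, which binds the Alu end of the RN7SL RNAs, fell by 0.44 (SE 0.06) and SRPRB, the receptor's membrane anchor, by 0.64 (SE 0.05), while SRPRA rose by 0.11 (SE 0.04).

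MYC and MAX bind the E-box, whose strongest form is CACGTG, a sequence that reads the same on both strands. It was looked for in RefSeq promoters (GRCh38.p14, 250 bases before to 50 after the start), which were matched for 26 of the 38 genes. The motif was in 6 of the 26 (23.1%), in 7.43% of all 27305 promoters and in 10.2% of the 10655 promoters of genes tested here. The windows below show each match with 10 bases on either side, on the strand of the gene, with the motif in capitals.
GTF3C2 (chr2:27356852-27356877, minus strand): ggaccaagcaCACGTGtttaccttgt
GTF3C4 (chr9:132669990-132670015, plus strand): cccgggacccCACGTGggacgcgcga
GTF3C6 (chr6:110958554-110958579, plus strand): ggcgagtctcCACGTGggtaccggcg
POLR3A (chr10:78029535-78029560, minus strand): aggaagcggaCACGTGggacactcta
POLR3C (chr1:145823994-145824019, plus strand): ccgcgtcggtCACGTGagttggccag
POLR3E (chr16:22297398-22297423, plus strand): cgctccccccCACGTGtccgccggag
The motif starts 35 bases before the annotated start in GTF3C4 and POLR3A, and 1 base before it in POLR3E. Of the 6 genes, POLR3E and GTF3C4 were higher with DOX, POLR3C and GTF3C2 lower, and POLR3A and GTF3C6 were not called, so genes with the motif moved in both directions. A match is a description of the letters and does not show binding.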

How the data were processed

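PolyA+ RNA of 8 D283-OMO cultures, described as independent biological replicates, was sequenced as paired reads of 100 bases from stranded libraries. Trim Galore removed adapters, STAR placed the reads on the primary assembly of GENCODE 32 (GRCh38), and RSEM gave the expected counts per gene that the authors deposited, not normalized. RSEM divides a read among the genes it fits, and 21 of the 38 genes had counts that were not whole. Whether the counting used strand is not given in the sources used here.

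Expected counts were rounded, 15222 genes over 1 CPM in 4 or more libraries were kept, and OMO+DOX was compared with OMO in edgeR 4.0.16 (R 4.3.3) by the quasi-likelihood test with TMM scaling, a common BCV of 0.0745, and Benjamini-Hochberg adjustment over all genes tested. CPM are TMM-scaled. SE is the absolute log2FC over the square root of F. Per-library ratios were tested by exact permutation (scipy 1.17.1). Names and gene structures came from GENCODE 29, which matched 58561 of 60668 identifiers, and lengths are of the longest transcript. Alternatives were DESeq2 1.42.0 (Wald test or size factors), library size scaling, the likelihood ratio test, other filters, a replicate block, summed copies and each library left out. In simulated data for this comparison (14942 genes), 98 of 99 genes with a planted log2FC of 1 were recovered and 90 of 98 with a planted 1.5-fold change, with 16 false calls.

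The genes and lists were chosen with earlier results of these data known. Named beside the 38 genes are MYC, CAD, NCL, the markers and, of each pathway list and direction, at most 2 genes with the largest absolute log2FC among those called without overlap. Some items are not reported here. Depth was 38390696 to 54020506 counts a library.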

Additional observations from a re-analysis of the deposited data

Results flagged for a closer look

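In 80 groups of 4 libraries examined, 7 had 1 library farther from the others than Dixon's 95% critical value allows, where chance gives about 4.0. Of the 7, 4 concern OMO replicate 3, the library whose deviations ran with transcript length: POLR2H at 33.7 CPM (others 28.4 to 28.9), BDP1 at 48.7 (84.6 to 86.1), GTF3C6 at 43.1 (36.4 to 37.4) and MAF1 at 79.6 (67.4 to 68.5). BDP1, the longest transcript, was low in it and the 3 others were high. OMO+DOX replicate 2 stood apart for POLR2M, at 64.2 CPM (57.9 to 58.6), and for POLR3F, at 17.0 CPM (15.3 to 15.4). OMO replicate 4 stood apart for RN7SK, at 3.0 CPM (4.64 to 4.88). The calls for POLR2H, POLR3F and RN7SK held without the library concerned.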

How the results depend on the processing

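Over the alternatives run, 519 of 573 values of single genes kept their direction and their side of FDR 0.05, 17 lost the call, 22 gained one and 15 changed sign, all 15 in genes that were not called. With library size scaling POLR2J (0.10), POLR2J3 ENSG00000168255.20 (0.10), POLR3A (0.076), POLR3D (0.035) and GTF3C3 (0.033) changed sign, 3 genes (POLR2A, POLR2L and POLR3GL) were higher by over 1.5-fold in place of 1, 9 genes were lower in place of 14, and the medians were 0.10 for polymerase II subunits, 0.035 for polymerase III subunits and -0.038 for the polymerase III factors. With a library left out, POLR2J lay between -0.11 and 0.03 (0.006, 0.031 and 0.031 where its sign changed), POLR2J3 ENSG00000168255.20 between -0.14 and 0.11 (0.001, 0.112 and 0.026) and GTF3C6 between -0.015 and 0.084 (-0.015, -0.003 and -0.013 where its sign changed), and the POLR2J copies summed gave 0.01. Leaving out a library gave 9 to 11 genes higher and 13 to 18 lower (8 to 11 and 13 to 17 with the tested genes kept), always 1 and 5 beyond 1.5-fold, and a median of -0.20 to -0.12 for the polymerase III factors (-0.115 without OMO+DOX replicate 2). The cause of these shifts was not tested. The POLR3G to POLR3GL ratio then lay between -0.75 and -0.62 and the POLR2A to POLR2B ratio between 1.54 and 1.62, each at p = 0.0571 in the exact permutation test, the smallest that 3 against 4 libraries allow. Deviations of same-numbered libraries correlated at 0.22, 0.20, 0.34 and -0.27 (replicates 1 to 4) and those of 12 other pairs at -0.41 to 0.51, and not every library correlated best with its own number, so the numbers were not taken as pairs. With a replicate block 11 genes were higher and 17 lower, POLR2I, POLR2M, POLR3B and MAF1 joined, and the ratios of -0.67 and 1.57 had an exact p of 0.125, the smallest that 4 pairs allow.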

Other observations

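The genes of RNA polymerase I, which makes the large rRNA precursor, gave calls in both directions, as did all genes tested (38.5% higher and 38.1% lower): of 12 listed, 6 rose and 4 fell, with a median log2FC of 0.05 (6 and 3, with a median of 0.17, when scaled by library size). TAF1C, a subunit of the promoter factor SL1, fell by 2.07 on the log2 scale (SE 0.07) and the subunit POLR1E went from 68.5 ± 2.59 to 33.2 ± 1.37 CPM (-1.05, SE 0.05). The subunits TWISTNB and CD3EAP rose by 1.02 (SE 0.06) and 0.36 (SE 0.07).

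Of 12 genes for assembly and nuclear import of the polymerases, 2 rose and 5 fell, with a median of -0.02 (4 and 4, with a median of 0.11, when scaled by library size). RUVBL1, an ATPase of the R2TP chaperone complex, fell from 143 ± 7.76 to 92.1 ± 2.48 CPM (-0.63, SE 0.05) and URI1, of the associated prefoldin-like complex, from 98.7 ± 2.91 to 71.4 ± 2.18 CPM (-0.47, SE 0.04). RPAP1 and RPAP3, both known for roles in polymerase II assembly, rose by 0.39 (SE 0.06) and 0.25 (SE 0.05).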
